A study of Rattus norvegicus with 6 samples.

Results

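Metalloreductases and iron-handling genes were followed in bulk RNA of rat tail discs. The set held 10 gene names, 4 of the STEAP family and 6 of iron transport and storage, and these matched 11 of the 30562 genes of the count table. The members were chosen from the measured values of the same comparison that is described here, because Steap1 was lower in the AF-PTK@LEV@SPP1-labelled libraries. Their differences between the groups are therefore given as a description, and the counts of calls among them support nothing.

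Both groups were wild-type Sprague-Dawley rats, male and 12 weeks old, whose tail disc had been punctured with an 18 G needle to start degeneration. The control discs received 10 μL of PBS, and the other discs received AF-PTK@LEV@SPP1, a hybrid of liposome and bacterial vesicle with a peptide for the annulus fibrosus and 1 mg/kg of siRNA against Spp1, with injections begun 24 h after surgery and effects followed over 8 weeks. Each group had 3 libraries. The sample records differ from the methods of the study: they name an untreated control, a treatment of 14 days and macrophages sorted from mouse discs, and another sequencer. In the counts the cartilage collagen Col2a1 stood at 13900 to 32000 CPM (normalized counts scaled to a common library size) across the 6 libraries and Adgre1, which encodes the macrophage marker F4/80 of the described sort, at 15.3 to 42.9 CPM. The puncture model and the mixed tissue limit what a level stands for, because fewer cells of a type and less RNA per cell cannot be told apart in bulk RNA.

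The control libraries held 17942989, 16565291 and 17489851 counts in replicates 1, 2 and 3, and the AF-PTK@LEV@SPP1-labelled libraries held 17074981, 15560728 and 17855184. At this depth 3 counts, taken as the smallest measurable level, stood for 0.167 to 0.193 CPM when scaled by total counts without normalization. On the normalized scale of the other CPM values, 3 counts in control replicate 1 were 0.154 CPM. The limit of 3 counts covers counting error only. Control replicates 2 and 3 were nearly the same library. The variance of their counts was 1.33 times that of counting noise, against 51.3 to 107 times for the 5 other pairs within a group, so they were counted as 1 sample, which leaves 2 control samples against 3. Values are still given for each of the 6 libraries.

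Spp1, which encodes osteopontin and is the target of the siRNA, stood at 8120, 4410 and 4420 CPM in control replicates 1, 2 and 3 and at 8050, 6900 and 8460 CPM in the AF-PTK@LEV@SPP1-labelled libraries. The groups overlapped, and the target was not lower in any of the 3 libraries than in control replicates 2 and 3. Its log2 fold change was 0.31 with a standard error (SE) of 0.37 and an adjusted p of 0.628 by edgeR's quasi-likelihood test with Benjamini-Hochberg adjustment. The libraries are for this reason named by their label throughout, and each direction below rests on that label.

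Iron enters most cells as ferric iron bound to transferrin, which the transferrin receptor carries into endosomes. There a STEAP metalloreductase passes electrons from NADPH through flavin and heme to the metal, and the ferrous iron leaves through a divalent metal transporter. Iron that is not used is stored inside ferritin shells or leaves the cell through ferroportin, and macrophages do much of this work because they break down old red cells.

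Among the reductases, Steap1 lacks the domain that binds NADPH in its relatives and works with electrons supplied by them. It stood at 17.1, 23.5 and 24.6 CPM in control replicates 1, 2 and 3 and at 3.70, 3.62 and 2.68 CPM in the AF-PTK@LEV@SPP1-labelled libraries. All 3 of the latter lay far below the lowest control library, on 47 to 63 counts a library against 332 to 403. The ratio of the means was 6.16 and the log2 fold change −2.63 (SE 0.24).

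Steap2, a reductase of iron and copper found at the Golgi and the cell surface, stood at 90.0, 103 and 110 CPM in the control replicates and at 34.2, 25.4 and 22.1 CPM in the AF-PTK@LEV@SPP1-labelled libraries. Every control library was above every other library, and the log2 fold change was −1.86 (SE 0.21). Steap4, a reductase induced by inflammatory cytokines and by feeding in fat tissue, stood at 317, 291 and 293 CPM in the control replicates and at 123, 145 and 110 CPM in the AF-PTK@LEV@SPP1-labelled libraries. The groups were again apart, each with little spread, and the log2 fold change was −1.28 (SE 0.16). Steap3, the main ferrireductase of the transferrin endosome in red cell precursors, stood at 37.5, 64.9 and 64.4 CPM in the control replicates and at 38.7, 34.3 and 42.2 CPM in the AF-PTK@LEV@SPP1-labelled libraries. Control replicate 1 lay among the AF-PTK@LEV@SPP1-labelled libraries, so the groups overlapped, and the log2 fold change was −0.42 (SE 0.25).

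Summed over the family, the level was 461, 483 and 493 CPM in the control replicates and 200, 208 and 177 CPM in the AF-PTK@LEV@SPP1-labelled libraries. Steap4 supplied most of these counts in every library, between 59.6% and 69.6%, a share of counts that also depends on transcript length. Steap1 made up 3.70%, 4.86% and 4.99% of the family's CPM in the control replicates and 1.85%, 1.74% and 1.51% in the others, and Steap3 made up 8.14%, 13.4% and 13.1% against 19.4%, 16.5% and 23.9%. The share of Steap1 was thus lower and that of Steap3 higher in all 3 of the AF-PTK@LEV@SPP1-labelled libraries than in any control library. These shares restate the levels above. That of Steap3 is higher because the family sum is lower, while its own level overlapped between the groups (log2 fold change −0.42).

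The 3 reductases with groups apart lie on chromosome 4. In the coordinates of the table, whose build is not given in the sources used here, Steap4 (ENSRNOG00000008602) spans chr4:26054671-26099859 on the minus strand, Steap1 (ENSRNOG00000000017) chr4:28276909-28287479 and Steap2 (ENSRNOG00000006076) chr4:28348362-28375791, both on the plus strand. Steap1 and Steap2 are 60.9 kb apart, and Steap4 lies 2.18 Mb from Steap1. The table lists 9 other genes in the whole stretch of 2.32 Mb, and each had 0 to 3 counts in every library, too few to be tested. Steap3 (ENSRNOG00000049471) lies on chromosome 13.

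**Figure D1:**
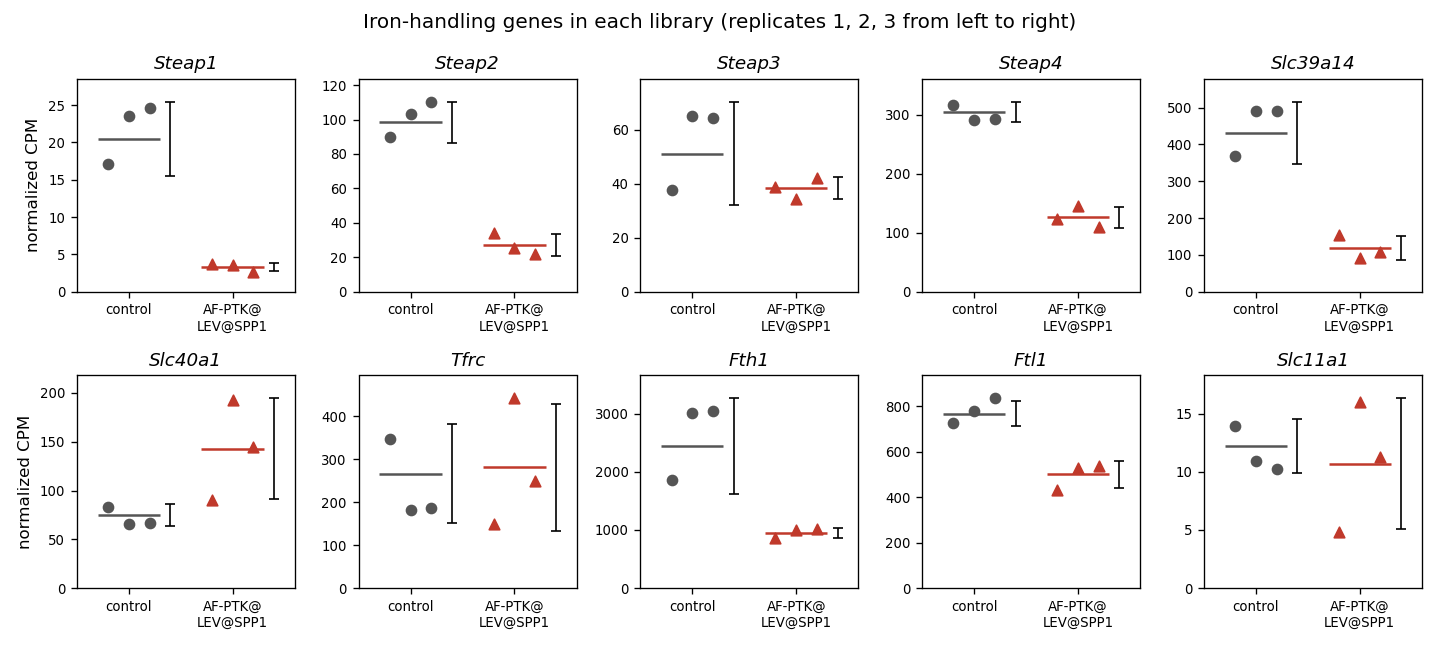
Normalized CPM (linear axis from 0) of the 10 tested members in the 3 control libraries (circles) and the 3 AF-PTK@LEV@SPP1-labelled libraries (triangles), with the mean as a line and the SD as a bar over 2 distinct control samples and 3 samples. Steap1, Steap2, Steap4, Slc39a14, Fth1 and Ftl1 are lower in every triangle than in every circle, Slc40a1 is higher, and Steap3, Tfrc and Slc11a1 overlap.

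Of the transporters, Slc39a14 (ZIP14, ENSRNOG00000009832 on chromosome 15) brings zinc, manganese and iron that is not bound to transferrin into cells, and inflammation raises it. It stood at 370, 490 and 491 CPM in the control replicates and at 155, 92.3 and 108 CPM in the AF-PTK@LEV@SPP1-labelled libraries. The groups were apart, and the log2 fold change was −1.87 (SE 0.27).

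Slc40a1 (ENSRNOG00000003872 on chromosome 9) encodes ferroportin, the exporter of iron. It stood at 82.7, 66.2 and 67.0 CPM in the control replicates and at 90.0, 193 and 145 CPM in the AF-PTK@LEV@SPP1-labelled libraries. It was the 1 member with every one of the AF-PTK@LEV@SPP1-labelled libraries above the controls, though replicate 1 exceeded control replicate 1 by little, and the log2 fold change was 0.93 (SE 0.34).

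Tfrc (ENSRNOG00000001766 on chromosome 11) encodes the transferrin receptor, which dividing cells and red cell precursors carry in large numbers. It stood at 347, 183 and 187 CPM in the control replicates and at 150, 442 and 250 CPM in the AF-PTK@LEV@SPP1-labelled libraries. The lowest and the highest library both belonged to the labelled group, and the log2 fold change was 0.07 (SE 0.51). Slc11a1 (NRAMP1, ENSRNOG00000014956 on chromosome 9), which moves divalent metals out of the phagosome of macrophages and neutrophils, stood at 13.9, 10.9 and 10.2 CPM in the control replicates and at 4.82, 16.0 and 11.3 CPM in the AF-PTK@LEV@SPP1-labelled libraries. Replicate 1 of the label was again the lowest and replicate 2 the highest of all 6, with a log2 fold change of −0.20 (SE 0.49).

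Ferritin is a shell of heavy chains, which oxidize iron on entry, and light chains, which help the mineral form. The heavy chain gene Fth1 (ENSRNOG00000022619 on chromosome 1) stood at 1860, 3010 and 3040 CPM in the control replicates and at 856, 992 and 1020 CPM in the AF-PTK@LEV@SPP1-labelled libraries. The groups were apart, with control replicate 1 the lowest of the controls, and the log2 fold change was −1.36 (SE 0.27). The light chain gene Ftl1 (ENSRNOG00000064385, also on chromosome 1) stood at 727, 780 and 835 CPM in the control replicates and at 431, 529 and 539 CPM in the AF-PTK@LEV@SPP1-labelled libraries. These groups were also apart, by a smaller step, with a log2 fold change of −0.63 (SE 0.17). The ratio of Fth1 to Ftl1 CPM was 2.56, 3.86 and 3.64 in the control replicates and 1.98, 1.87 and 1.89 in the others, lower in each of the latter than in any control library. It is a ratio of counts and not of proteins. The second gene named Ftl1, on chromosome 10, had 1 to 5 counts in each library and was not tested. Both ferritin genes are uncertain, because near-identical processed copies of ferritin genes occur in mammalian genomes and the treatment of shared reads is not given in the sources used here. In the table the span of Fth1 also overlaps those of Rab3il1 and Fads3 on the same strand and of Fads2 and Best1 on the other, and the span of Ftl1 overlaps that of Bax on the same strand. These neighbours had at most 673 counts in a library, against 14553 to 49809 for Fth1 and 7336 to 14163 for Ftl1.

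Of the 10 members that passed the filter on low counts, edgeR's quasi-likelihood test on the 5 distinct samples called 4 lower, Steap1, Steap2, Steap4 and Slc39a14, and 0 higher, where called means an adjusted p under 0.05 over all 15537 genes tested. Over all genes, 2.57% were called lower and 1.13% higher. At an unadjusted p under 0.05 there were 6 members lower and 1 higher, beside 13.0% and 12.4% of all genes. DESeq2 called 6 lower, Fth1 and Ftl1 in addition, and 0 higher (9.27% and 7.29% of all genes), and limma-voom called the same 4 as edgeR lower and 0 higher (2.03% and 0.895%). With the 6 libraries kept apart, 6 members were called lower, Fth1 and Ftl1 in addition, beside 9.93% of all genes called lower and 8.20% called higher. Groups did not overlap for 6 members that were lower and 1 that was higher, beside 20.1% and 21.8% of all genes. The median log2 fold change of the members was −0.96, against 0.05 for all genes tested. As the comparison chose the members, nothing is read from these counts. The counts also changed with single libraries. Without control replicate 1 the control arm is 1 sample, assumed to vary like the other group, with a log2 fold change of −2.87 for Steap1. Without replicate 1 of the label 3 members were called lower, beside 83 lower and 30 higher of 15363 genes. Without its replicate 2 or 3 edgeR called 0 of all genes. At an unadjusted p under 0.05, each of these last fits had 6 members lower and 0 higher. Over all genes there were 1581 lower and 1528 higher of 15208, and 1403 and 1296 of 15228.

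Levels were not ranked between members, because the table gives no exon length by which to scale them. The genes with a profile closest to that of Steap1, by the root mean square difference of centred log2 CPM over the 5 samples among 13035 genes, were Adamts7 (0.130), Arl4c (0.165), Mmp14 (0.182), Il7 (0.196), Shc2 (0.223) and Cthrc1 (0.224). Adamts7 and Mmp14 encode proteases of the extracellular matrix, Il7 a cytokine for lymphocytes and Cthrc1 a secreted protein of wounds. For example, Mmp14 stood at 783, 1420 and 1420 CPM in the control replicates and at 222, 186 and 181 CPM in the AF-PTK@LEV@SPP1-labelled libraries. Its profile, like that of Steap1, was lowest among the controls in replicate 1 and far lower in the label's 3 libraries. Of the members, Steap2 was the 43rd closest (0.376) and Slc39a14 the 69th (0.422), while the median over all genes compared was 1.31. Fth1 (0.659), Steap4 (0.67), Ftl1 (0.993), Steap3 (1.11) and Slc11a1 (1.29) were also under that median. Tfrc (1.44) and Slc40a1 (1.76) were farther from Steap1 than the median gene. Steap1 was chosen because it was lower in this comparison, so genes that fell much lie near it and genes that rose lie far. The distances therefore largely restate the fold changes, and nothing is read from them.

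Beyond the members, 10 lists of genes for iron, heme, zinc and copper handling held 122 names, of which 120 matched the table and 111 were tested. By edgeR 9 were called lower and 0 higher (2.57% and 1.13% of all genes), with 25 lower and 14 higher at an unadjusted p under 0.05 (13.0% and 12.4%). DESeq2 called 19 lower and 8 higher (9.27% and 7.29%), and limma-voom 8 lower and 0 higher (2.03% and 0.895%). The 14 and the 8 higher are close to the shares of all genes. The median log2 fold change was 0.00. These counts also changed with single libraries. Without replicate 1 of the label edgeR called 0 lower and 1 higher (Alas2), and without its replicate 2 or 3 it called 0. At an unadjusted p under 0.05, 24 were lower and 24 higher without replicate 1 of the label (2030 and 1968 of all 15363 genes). By the same rule 21 were lower and 8 higher without its replicate 2 (1581 and 1528 of 15208). Without its replicate 3 there were 20 lower and 7 higher (1403 and 1296 of 15228).

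The metallothioneins, small proteins that bind zinc and copper, were called lower. Mt1 stood at 151, 144 and 144 CPM in the control replicates and at 61.0, 51.7 and 75.0 CPM in the AF-PTK@LEV@SPP1-labelled libraries (log2 fold change −1.25, SE 0.18). Mt2A stood at 300, 354 and 340 CPM against 103, 101 and 149 CPM (−1.47, SE 0.22). Mt3 stood at 61.4, 33.4 and 31.0 CPM against 10.2, 9.89 and 10.1 CPM (−2.22, SE 0.28). All 3 fell without overlap of the groups. Of the 11 genes tested in their list, with the zinc exporters, 7 were lower and 1 higher (Slc30a10) at an unadjusted p under 0.05, and 6 and 1 by DESeq2. Mtf1, the factor that turns metallothionein genes on when zinc is high, is in the same list and overlapped between groups, at 13.6 to 15.3 CPM in control libraries and 14.3 to 17.6 CPM in the others.

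Of the importers of metal, 4 were called lower by edgeR. Of these, limma-voom called Slc11a2 and Slc39a8 lower but not Slc39a1 or Slc31a1, and it also called Hephl1, of the iron uptake list, lower. Slc11a2 (DMT1), which takes ferrous iron out of the endosome and was the 1 called of 13 genes of iron uptake and release tested, stood at 75.3, 83.1 and 88.2 CPM in the control replicates and at 32.2, 31.9 and 37.8 CPM in the AF-PTK@LEV@SPP1-labelled libraries (log2 fold change −1.25, SE 0.13). Slc39a8 (ZIP8), the closest relative of Slc39a14, stood at 87.0, 74.7 and 74.5 CPM against 44.3, 46.5 and 41.0 CPM (−0.89, SE 0.12). Of the 11 zinc importers tested it fell together with Slc39a1 (ZIP1), at 207, 212 and 216 CPM against 133, 106 and 111 CPM (−0.86, SE 0.14). The copper importer Slc31a1 (CTR1) stood at 95.7, 111 and 114 CPM against 57.9, 61.9 and 65.2 CPM (−0.76, SE 0.12), 1 of 8 copper genes tested that was called. In each of these genes every control library exceeded every other library. The lists of iron uptake, zinc import and copper also held genes that were higher at an unadjusted p under 0.05, 3, 1 and 1 (Scara5, Tfr2 and Heph, Slc39a2, and Atp7b), beside 3, 4 and 2 lower.

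Frrs1, a ferric reductase outside the STEAP family, stood at 64.1, 45.0 and 47.0 CPM in the control replicates and at 17.8, 20.3 and 17.8 CPM in the AF-PTK@LEV@SPP1-labelled libraries (log2 fold change −1.57, SE 0.17). It was the 1 called of 6 reductases of the cytochrome b561 kind, of which 4 had a positive log2 fold change. Cyb561a3 was higher without overlap of the groups, at 20.8 to 24.8 CPM in control libraries and 26.4 to 48.7 CPM in the others (0.70, SE 0.28), and the 1 higher of the list at an unadjusted p under 0.05. The list also holds Cybrd1, the duodenal reductase, at 35.9 to 62.5 CPM in control libraries and 48.3 to 66.4 CPM in the others. Among 14 genes of ferroptosis, death by iron-driven lipid peroxidation, Acsl4, which loads polyunsaturated fatty acids into membrane lipids, was called lower, at 85.2, 85.6 and 85.2 CPM against 36.8, 50.9 and 43.0 CPM (−0.98, SE 0.16). At an unadjusted p under 0.05 this list had 5 lower and 3 higher, Slc7a11 (1.16, SE 0.37), Alox15 (3.22, SE 1.17) and Chac1 (1.21, SE 0.23), and DESeq2 called 2 lower and 1 higher, Chac1.

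In 4 lists no gene was called by edgeR: iron sensing (9 tested, of which at an unadjusted p under 0.05 there were 1 higher and 1 lower), heme synthesis (9 tested, 2 higher), heme uptake and breakdown (12 tested, 2 lower) and mitochondrial iron (18 tested, 1 higher). DESeq2 called 1 higher, 2 higher, 2 lower and 0 in these, and limma-voom called 0. By the sum of the 2 group means, though not in each library, the most abundant gene of each was Neo1, a coreceptor in hepcidin control (130 to 148 CPM in control libraries and 158 to 211 CPM in the others), Alas2, the first enzyme of heme synthesis in red cells (26.6 to 29.3 and 27.9 to 304 CPM), Hmox1, the heme-degrading enzyme (151 to 282 and 27.6 to 81.1 CPM), and Isca1, of iron-sulfur assembly (60.2 to 71.7 and 75.3 to 117 CPM). The groups of Hmox1, Neo1 and Isca1 did not overlap, but edgeR called none of them on 5 samples. DESeq2 on the same samples called Hmox1 lower, but not Neo1 or Isca1. Hamp, Ltf, Mcoln1, Ftmt, Slc39a7, Slc39a12 and Slc30a8 were at or under 3 counts in every library. Hephl1, a ferroxidase, had 0 counts in the AF-PTK@LEV@SPP1-labelled libraries, at 0.925, 2.57 and 2.63 CPM in the control replicates.

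**Figure D2:**
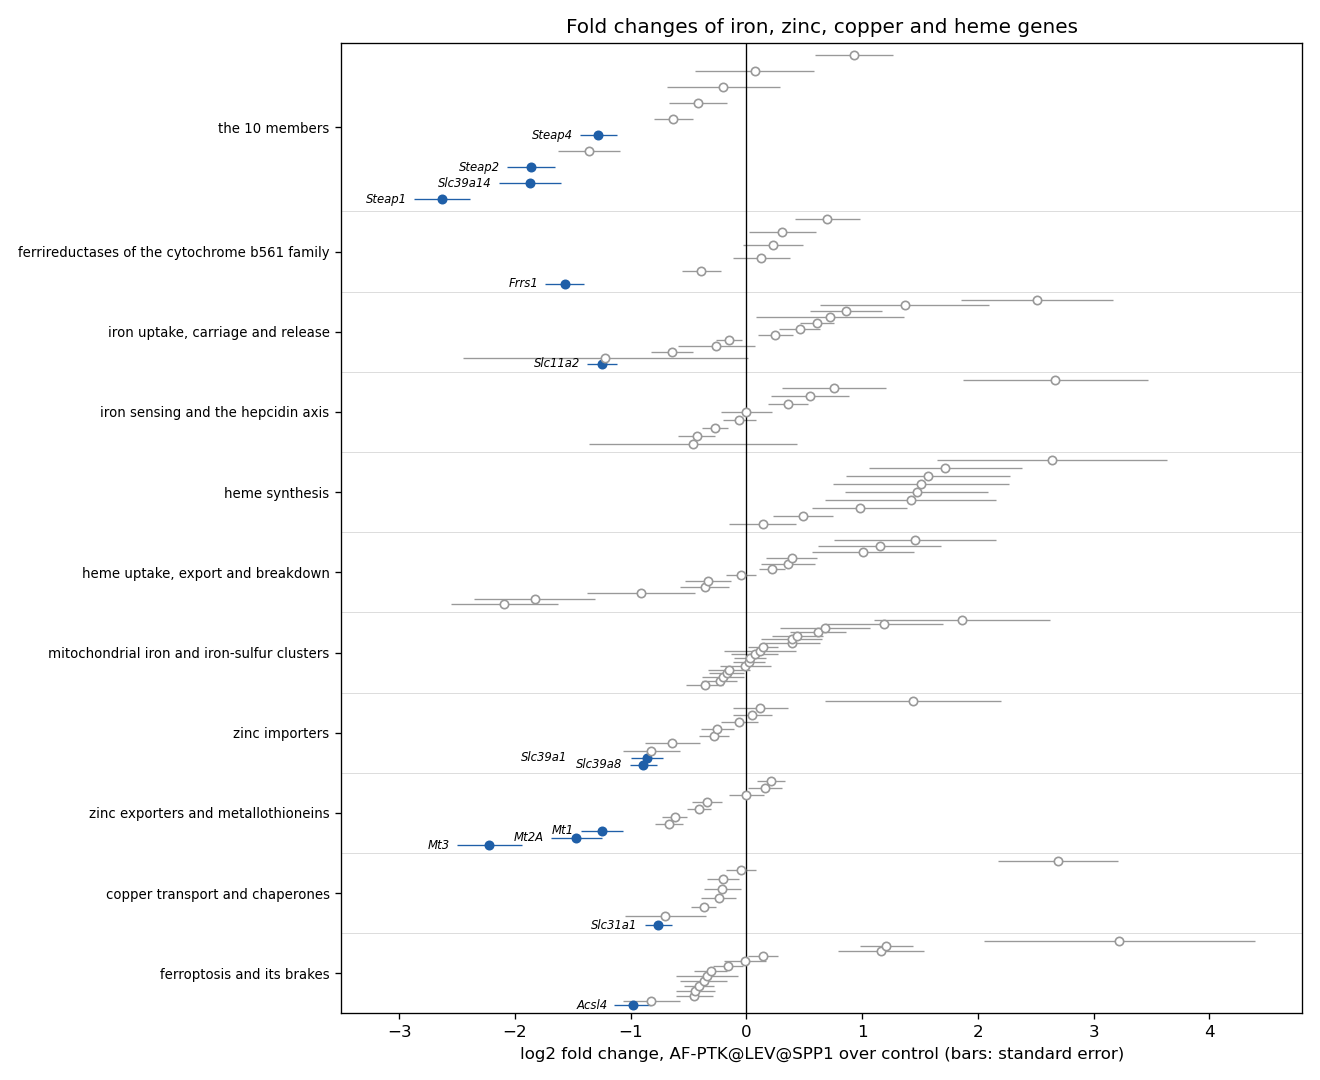
Log2 fold change of the AF-PTK@LEV@SPP1-labelled libraries over control, with its standard error, for the 10 members and 108 tested genes of the pathway lists, leaving out 3 with at most 3 counts in every library of a group. Filled and named points were called at an adjusted p under 0.05 on 5 samples, and all of them lie below 0, from Steap1 at −2.63 to Slc31a1 at −0.76. The members were chosen from this comparison because Steap1 was lower in it, so their filled points are a description.

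Cell markers moved with these results. For these and the marker lists below, the shares of all genes called by edgeR were 2.57% lower and 1.13% higher. They were 13.0% and 12.4% at an unadjusted p under 0.05, and 9.27% and 7.29% by DESeq2. Of 6 osteoclast genes, 4 were called lower (Acp5, Ctsk, Dcstamp and Atp6v0d2) and 0 higher, and the summed level was 5380, 3390 and 3400 CPM in the control replicates and 821, 749 and 482 CPM in the AF-PTK@LEV@SPP1-labelled libraries, most of it Ctsk. At an unadjusted p under 0.05, and by DESeq2, 5 were lower and 0 higher. Of 11 macrophage genes tested, 3 were called lower (Cd68, Cd14 and Ms4a7), 5 were lower and 0 higher by each of the same 2 rules, all 11 had a negative log2 fold change, and the sum was 3110, 2110 and 2090 CPM against 666, 1830 and 1910 CPM, with Lyz2 the most abundant and Marco at 0 counts in all libraries. Of 5 fibroblast genes, Lum was called lower, 3 were lower and 0 higher by each of the 2 rules, and the sum was 17600, 35300 and 35400 CPM against 10600, 9070 and 12900 CPM, with Col3a1 the most abundant. The osteoclast and fibroblast sums, and the endothelial sum given below, were lower in all 3 of the AF-PTK@LEV@SPP1-labelled libraries than in any control library. So were Steap1, Steap2, Steap4, Slc39a14 and ferritin, and so were 20.1% of all genes. The macrophage sum was also lower in all 3, but in replicates 2 and 3 of the label it was near control replicates 2 and 3 because of Lyz2. Without Lyz2 it was 1270, 848 and 844 CPM against 394, 590 and 505 CPM. Groups were apart for Cd68, Cd14, Ms4a7, Csf1r, Mrc1 and Itgam and overlapped for Lyz2, Adgre1, C1qa, C1qb and C1qc. The part of these lists in the results for the members was not tested.

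Other lists were high in replicates 2 and 3 of the label, the libraries that also held the most Slc40a1. Of 9 erythroid genes edgeR and limma-voom called 0, and DESeq2 called 3 higher (7.29% of all genes). At an unadjusted p under 0.05 there was 1 higher, close to the 12.4% of all genes. The erythroid sum was 2370, 3160 and 3250 CPM in the control replicates and 2480, 20400 and 14000 CPM in the AF-PTK@LEV@SPP1-labelled libraries, most of it Hba-a1. Of 10 neutrophil genes 0 were called by edgeR, DESeq2 or limma-voom, and 0 at an unadjusted p under 0.05, with sums of 1230, 198 and 185 CPM against 331, 3200 and 4270 CPM, led by S100a9 (here and below by the sum of the 2 group means, not in each library). The 5 proliferation genes, led by Mki67, had 0 calls by the same tools, 0 at an unadjusted p under 0.05, and sums of 209, 131 and 125 CPM against 99.2, 576 and 373 CPM. The 9 genes of heme synthesis summed to 184, 148 and 150 CPM against 160, 819 and 485 CPM. In each of these lists, replicates 2 and 3 of the label exceeded all other libraries, and their part in the levels of Tfrc, Slc40a1 and Slc11a1 was not tested.

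Further lists with 0 genes called by edgeR on 5 samples covered other tissues. Adipocyte genes summed to 493, 89.4 and 92.1 CPM in the control replicates and to 1070, 1730 and 797 CPM in the AF-PTK@LEV@SPP1-labelled libraries (led by Fabp4, 4 of 6 higher at an unadjusted p under 0.05 and by DESeq2). Muscle genes summed to 997, 1260 and 1270 CPM against 931, 9640 and 2500 CPM (led by Acta1, though Myh4 exceeded it in the 3 control libraries). Chondrocyte and nucleus pulposus genes, led by Col2a1, summed to 16800, 25900 and 25700 CPM against 37000, 24800 and 39500 CPM, with 3 of 6 higher by both measures. Annulus and tendon genes, led by Fmod, summed to 3550, 7570 and 7630 CPM against 7150, 4840 and 8220 CPM. Osteoblast genes, led by Ibsp, summed to 4560, 1790 and 1780 CPM against 2170, 3120 and 1800 CPM, endothelial genes, led by Pecam1, to 498, 601 and 585 CPM against 375, 438 and 435 CPM, and lymphocyte genes, led by Cd79a, to 26.9, 7.33 and 7.51 CPM against 12.2, 33.2 and 53.3 CPM. Of these last lists, at an unadjusted p under 0.05, 1 of 6 annulus genes was higher, close to the 12.4% of all genes. By the same rule 3 endothelial and 2 lymphocyte genes were lower (13.0% of all genes), and 0 osteoblast and 0 muscle genes differed. In the same order DESeq2 called 1 higher, 2 lower, 1 lower, 0 and 0 (9.27% of all genes lower and 7.29% higher), and limma-voom called 0 in all of them.

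Promoters were read because Steap1, Steap2 and Steap4 and the metallothioneins were low in the same libraries. RefSeq windows of 300 bases around gene starts (build GRCr8) were found for 6 of the 10 members, Steap1, Steap2, Steap3, Steap4, Slc40a1 and Tfrc, and for all 9 called pathway genes, but not for Slc39a14, Fth1, Ftl1 and Slc11a1. The core of the metal response element, TGCACNC or TGCGCNC on either strand, which the zinc-sensing factor binds in metallothionein genes, occurred in 24.2% of all 33469 windows and at least 3 times in 1.68%. It occurred 3 times in Steap1 and 3 times in Tfrc, and in each of these genes 2 of the matches overlap on opposite strands. It occurred 1 time in Steap3 and had no match in Steap2, Steap4 or Slc40a1. It occurred 6 times in Mt1, 4 times in Mt2A and 3 times in Mt3, 1 time each in Slc39a1 and Acsl4, and had no match in Frrs1, Slc11a2, Slc39a8 or Slc31a1. The antioxidant core TGACNNNGC (12.1% of windows) had no match in the 6 members and a match in 4 of the 9 pathway genes, and the hypoxia core ACGTG (19.3%) matched 1 member, Tfrc, and 3 of the 9. A match is a run of letters and no evidence of binding.

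The windows of Steap1 (chr4:29231559-29231858 on the plus strand), Steap2 (chr4:29303131-29303430 on the plus strand), Steap4 (chr4:27054720-27055019 on the minus strand) and, for comparison, of Mt1 (chr19:10832926-10833225 on the minus strand) are shown 5′ to 3′ along the gene's strand, with the metal response core in capitals.
Steap1: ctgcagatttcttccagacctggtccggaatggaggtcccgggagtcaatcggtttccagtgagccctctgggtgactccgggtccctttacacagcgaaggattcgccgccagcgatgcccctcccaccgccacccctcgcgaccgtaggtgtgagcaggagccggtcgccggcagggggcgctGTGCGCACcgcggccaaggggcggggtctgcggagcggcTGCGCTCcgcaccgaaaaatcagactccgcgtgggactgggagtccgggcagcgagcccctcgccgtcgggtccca
Steap2: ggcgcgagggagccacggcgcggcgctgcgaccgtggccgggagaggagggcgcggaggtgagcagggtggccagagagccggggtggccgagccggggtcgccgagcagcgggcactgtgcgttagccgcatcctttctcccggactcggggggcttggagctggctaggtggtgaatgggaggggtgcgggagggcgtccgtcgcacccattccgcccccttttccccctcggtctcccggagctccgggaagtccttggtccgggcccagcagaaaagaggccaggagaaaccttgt
Steap4: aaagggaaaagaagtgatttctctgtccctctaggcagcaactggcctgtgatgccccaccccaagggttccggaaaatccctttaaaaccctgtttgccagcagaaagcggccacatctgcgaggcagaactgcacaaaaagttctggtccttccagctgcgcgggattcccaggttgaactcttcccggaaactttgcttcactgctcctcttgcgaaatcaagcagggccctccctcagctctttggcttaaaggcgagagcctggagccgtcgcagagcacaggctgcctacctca
Mt1: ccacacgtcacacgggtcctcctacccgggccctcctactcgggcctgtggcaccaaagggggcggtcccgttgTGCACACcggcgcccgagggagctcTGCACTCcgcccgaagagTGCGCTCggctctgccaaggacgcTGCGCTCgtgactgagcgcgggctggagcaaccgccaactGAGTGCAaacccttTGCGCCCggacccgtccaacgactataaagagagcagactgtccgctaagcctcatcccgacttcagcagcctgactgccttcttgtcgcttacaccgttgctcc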

How the data were processed

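The authors deposited counts, whole numbers of reads per Ensembl rat gene in 6 libraries of disc tissue, without normalization. The submitters' processing notes list FastQC, Trimmomatic, HISAT2, featureCounts and DESeq2 without versions, and a mouse build, although the identifiers are of rat. The columns named IVD were read as control, because the study calls the PBS discs by a name of that form, and each replicate number was taken from the column name. Strand setting and shared reads are not given in the sources used here.

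Counts were normalized with the trimmed mean of M-values in edgeR 4.0.16 (R 4.3.3), filtered with filterByExpr and tested with its quasi-likelihood test, Benjamini-Hochberg adjusted over all genes, at 0.05. Control replicates 2 and 3 were summed for the fit. The fits were tested on simulated data, in which the share of false calls by DESeq2 was several times the 0.05 set and that of edgeR and limma-voom above it by less. The SE is the fold change divided by the root of the F statistic. SD and means use 2 control samples and 3 others. P-values set the difference between the groups against the spread between these samples, which is estimated with help from the other genes.

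Alternatives were the 6 libraries kept apart, the replicate number as a block, DESeq2 1.42.0, limma-voom (limma 3.58.1), other normalizations, filters and a fold threshold, and each library left out. The members, the 10 pathway lists and the 14 marker lists were chosen with earlier results of these data known. Of the marker lists 1 is not reported here. Named genes are all members, the pathway genes called, the most abundant gene of a list with none called, the 6 genes closest to Steap1 whose log2 CPM averaged 1 or more, Spp1, and the most abundant and called markers. Further genes named beside them (Mtf1, Cybrd1, Hephl1, Adgre1, Myh4, Cyb561a3, the macrophage markers not called, the genes higher at an unadjusted p, and those near 0) were chosen after their values were seen. Names were matched directly or through RefSeq synonyms, and Cox17, Sco2, Krt19 and T had no match. Gene lengths and proteins were not used here.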

Additional observations from a re-analysis of the deposited data

How the results depend on the processing

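The counts of calls depended on how the control pair was treated. With the 6 libraries kept apart, 1233 genes were called higher and 1494 lower, and 5 and 20 of the iron and metal pathway genes, against 175, 400, 0 and 9 on 5 samples. DESeq2 called 1132, 1440, 8 and 19. Without a filter 1 pathway gene was called higher, and with an absolute log2 fold change above 1 there were 5 lower. Leaving out 1 library gave 0 to 170 genes higher, 0 to 396 lower, 0 to 1 pathway genes higher and 0 to 10 lower. Each count of 0 there came from edgeR, and without replicate 2 of the label 1528 genes were higher and 1581 lower at an unadjusted p under 0.05 (1296 and 1403 without replicate 3). Fewer samples were fitted in these, and the other causes were not tested.

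With the replicate block on 6 libraries, 307 genes were called higher and 434 lower, with 1 and 12 pathway genes and 5 members lower. Samples of the same number did not deviate together (correlations −0.326, −0.282 and −0.0756), so the numbers do not pair them.

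Of 140 member fold changes under 14 alternatives, 138 moved by less than 1 SD between samples. The others came without control replicate 1, where the lone control sample is assumed to vary like the other group: with 1 library left out Steap3 ranged from −0.77 to −0.34 and Fth1 from −1.68 to −1.32. The sign changed for Tfrc in 2 and for Slc11a1 in 1 of the 14, and for no other member. Steap1 ranged from −2.87 to −2.49. Its lowest library held 47 counts, fewer than any library of the other tested members.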
